A study of Mus musculus with 51 samples.

Results

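The PRDM genes Prdm1, Prdm2, Prdm8, Prdm9, Prdm12, Prdm13 and Prdm16 were examined in the ChIP-seq peak lists of astroglial differentiation. Peaks of all 6 lists that overlapped the mm9 gene body of a member or the 20 kb on either side of it by at least 1 bp were taken, which gave 388 of 803595 peaks over 7 of 22359 coding genes. For H3K27ac, 22 of 79413 peaks of the aNPC list, 31 of 83433 of the eA list and 30 of 92700 of the lA list were taken. For H3K4me1 the numbers were 87 of 154238, 115 of 185478 and 103 of 208333. The 3 stages derive from embryonic stem cells of C57/BL-6 background: neural progenitors (aNPC) were kept in EGF and FGF-2, and medium with DMEM, FBS and LIF then gave early astrocytes (eA, day 1) and late astrocytes (lA, day 5). The labels name no siRNA for the samples behind these lists, and all are cells in culture. Each list was called by the authors on the merged reads of 2 replicates, so a stage has 1 list per mark, no spread between cultures can be given and no stage was tested against another.

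PRDM proteins carry a PR domain, a relative of the SET domain of histone methyltransferases, and most of them carry zinc fingers that bind DNA. Several are known for switching cell fates, in germ cells, blood, fat and the nervous system, and some methylate histones themselves. H3K27ac lies at active promoters and enhancers, whereas H3K4me1 lies at enhancers that are active or not yet active and on the flanks of active promoters. A peak records that reads of a mark piled up, not that a gene was transcribed or an enhancer worked.

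The bases at the centre of the peaks on which the results turn are shown here. Each run is 200 bp of the mm9 genome (NCBIM37) centred on an H3K27ac summit, read on the strand of the gene, which is the minus strand of the chromosome for all of them except Prdm8. Capitals mark exact matches on either strand to any of 6 motifs described further down, and a run without capitals holds none of them. The Prdm9 promoter is shown because its peak ranked highest of the member H3K27ac peaks at each stage, at chr17:15701504-15701703 and without overlap with an annotated exon.
Prdm9 promoter, aNPC summit: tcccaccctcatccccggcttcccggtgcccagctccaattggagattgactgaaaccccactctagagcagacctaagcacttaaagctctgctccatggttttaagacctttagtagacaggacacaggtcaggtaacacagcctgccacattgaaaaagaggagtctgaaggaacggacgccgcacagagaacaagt
The Prdm2 intron is shown for the strongest peak outside of annotated coding promoters, at chr4:142751780-142751979, and the run reaches into an annotated exon.
Prdm2 intron, aNPC summit: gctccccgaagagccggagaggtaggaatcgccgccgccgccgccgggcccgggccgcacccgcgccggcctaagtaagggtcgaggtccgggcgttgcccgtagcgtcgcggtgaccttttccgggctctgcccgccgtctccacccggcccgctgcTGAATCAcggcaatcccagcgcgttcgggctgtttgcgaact
The Prdm1 promoter, at chr10:44178787-44178986, is shown because its peak was listed in aNPC and eA and not at the promoter in lA.
Prdm1 promoter, aNPC summit: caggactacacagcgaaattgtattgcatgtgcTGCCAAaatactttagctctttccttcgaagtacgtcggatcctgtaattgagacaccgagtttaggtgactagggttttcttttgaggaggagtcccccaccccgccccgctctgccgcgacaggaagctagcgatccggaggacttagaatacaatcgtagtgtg
Prdm16 is shown by its highest peaks in eA, at chr4:153973813-153974012, and in lA, at chr4:153974502-153974701, since neither place had an H3K27ac peak in aNPC.
Prdm16 intron, eA summit: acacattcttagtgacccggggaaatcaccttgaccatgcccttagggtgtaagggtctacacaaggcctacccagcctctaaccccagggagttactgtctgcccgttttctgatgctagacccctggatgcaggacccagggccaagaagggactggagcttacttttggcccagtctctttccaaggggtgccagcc
Prdm16 intron, lA summit: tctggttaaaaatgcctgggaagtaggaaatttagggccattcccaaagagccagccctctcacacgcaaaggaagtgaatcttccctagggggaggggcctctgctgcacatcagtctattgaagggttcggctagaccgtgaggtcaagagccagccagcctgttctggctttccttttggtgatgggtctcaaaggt
The last Prdm8 coding exon, at chr5:98614675-98614874, and the stretch upstream of Prdm13, at chr4:21615976-21616175, are shown for members without an H3K27ac peak in lA.
Prdm8 coding exon, aNPC summit: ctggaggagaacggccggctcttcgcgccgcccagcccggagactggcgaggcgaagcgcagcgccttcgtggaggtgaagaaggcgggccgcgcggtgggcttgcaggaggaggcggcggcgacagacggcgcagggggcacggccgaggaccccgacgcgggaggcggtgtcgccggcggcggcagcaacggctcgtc
Prdm13 upstream, aNPC summit: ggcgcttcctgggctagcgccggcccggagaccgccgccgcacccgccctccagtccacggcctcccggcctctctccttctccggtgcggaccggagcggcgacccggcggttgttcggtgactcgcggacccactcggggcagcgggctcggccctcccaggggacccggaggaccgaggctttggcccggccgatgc

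The value given for a peak is the −log10 q at its summit, which MACS2 computed from the reads of that list. Since the depth of the merged libraries is unknown here, these values were compared only within a list, as the percent of its peaks with a lower value. Where 3 values follow each other, they stand for aNPC, eA and lA. Marker promoters were counted as a check of the labels. An H3K27ac promoter peak was listed at 4 of 5 neural progenitor markers at all 3 stages and at 3, 3 and 4 of 6 astrocyte markers, beside 50.6%, 53.2% and 48.2% of all coding genes. Among the astrocyte markers, Gfap and Slc1a3 had one at all stages, Gja1 in eA and lA, Aqp4 in lA, S100b in aNPC and Aldh1l1 at no stage, so these counts do not set the stages apart. It was listed at 1 of 3 neuronal markers at each stage, and 0 of 3 pluripotency and 0 of 3 germ cell markers had a promoter peak in any list. RNA-seq and the siRNA samples of the series, among them the H3K27ac ChIP after depletion of Prdm9 in lA, were not analysed here.

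Among the members, Prdm9 and Prdm2 alone had peaks of both marks at the promoter at all 3 stages, a state found at 33.9% of coding genes. The promoter of a gene was the stretch from 1 kb before to 100 bp after any of its coding start sites. H3K27ac promoter peaks were listed for 3 of 7 members in aNPC (Prdm1, Prdm2 and Prdm9), for the same 3 in eA and for 3 in lA (Prdm2, Prdm9 and Prdm16), beside 50.6%, 53.2% and 48.2% of all coding genes. H3K4me1 promoter peaks were listed for 5 of 7 members at every stage, beside 55.4%, 53.6% and 52.7% of coding genes, and the 2 without were Prdm12 and Prdm13. With 7 genes, neither count was read as a feature of the family. The map around the coding starts places the peaks of the 7 genes.

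**Figure D1:**
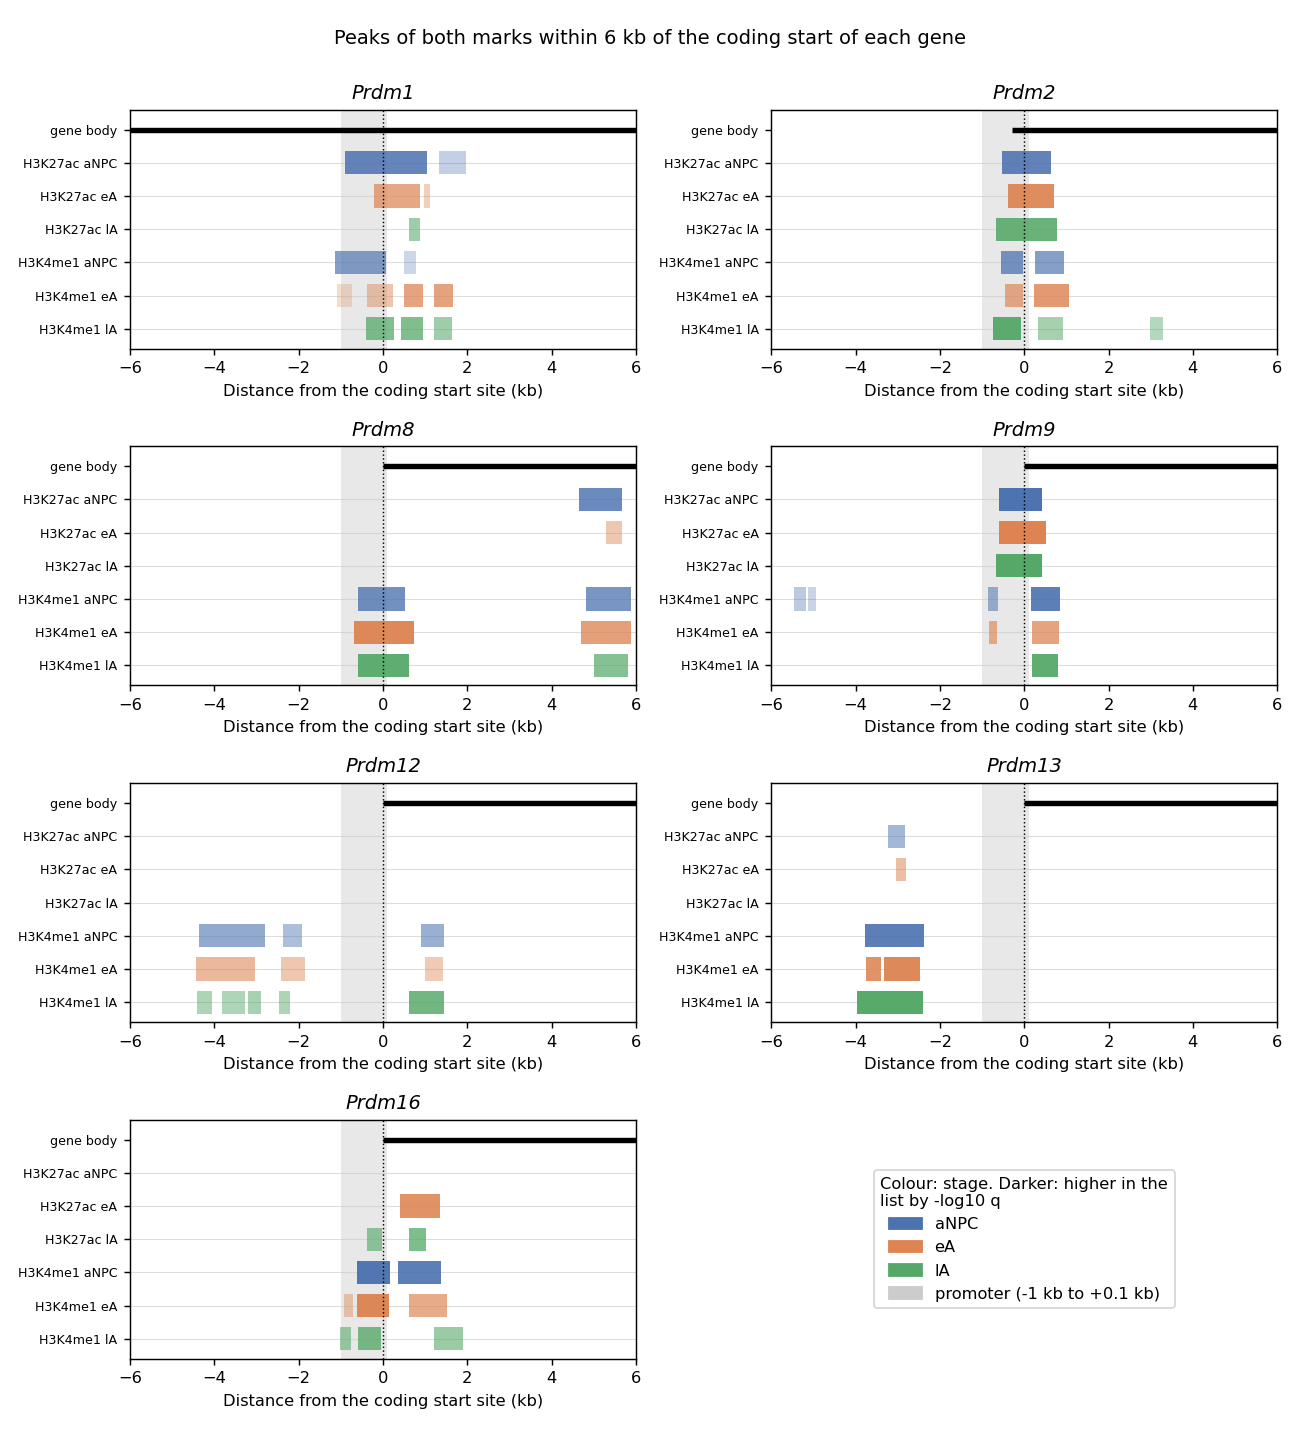
Peaks within 6 kb of the coding start site of each member, by distance from that start in kb (negative is upstream) on the x axis and by list on the y axis. Each bar is 1 peak in the colour of its stage, darker where more peaks of the list had a lower −log10 q, the grey band is the promoter and the black line the gene body. Prdm2 and Prdm9 have H3K27ac at the start at all 3 stages, Prdm1 in aNPC and eA, and Prdm16 in lA.

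Prdm9 is known for placing the histone marks that direct meiotic recombination in germ cells. Its gene (ENSMUSG00000051977.7) lies at chr17:15680043-15701318 on the minus strand. The promoter H3K27ac peak had a −log10 q of 251 in aNPC (chr17:15700878-15701898), 274 in eA (chr17:15700790-15701903) and 100.4 in lA (chr17:15700885-15701967). It stood above 99.2%, 99.8% and 99.4% of the peaks of its list, so Prdm9 was near the top of every H3K27ac list. Among coding genes with a promoter peak, 672 of 11303 in aNPC, 164 of 11886 in eA and 513 of 10767 in lA had a higher one. The summits lay 300, 298 and 285 bp upstream of the coding start. An H3K4me1 peak with its summit downstream of the start overlapped the acetylated stretch at each stage, at −log10 q 29.8, 13.3 and 24.8. A second H3K4me1 peak was listed upstream, with its summit 728 bp and 733 bp from the start, in aNPC (7.73) and eA (9.57) only. Prdm9 thus shared with 33.9% of coding genes the state with both marks at the promoter at all stages. Its other H3K27ac peaks of all stages lay at Tbp and Pdcd2, neighbouring genes, with summits 36.8 to 37.4 kb downstream of the Prdm9 start. The 1 distal H3K27ac site outside of promoters was listed in eA only, 27.8 kb downstream of the start (chr17:15673357-15673627, −log10 q 5.68). Of the eA list, 27.3% stood below it. H3K4me1 was listed there at each stage, at −log10 q 24.8, 17.4 and 12.1. The eA peak of H3K4me1 there (chr17:15673440-15673891) was the highest of the window in the eA list, whereas in aNPC and lA the highest lay at the promoter. Where each peak counted only for the gene whose start was closest, Prdm9 kept 1 H3K27ac peak per stage.

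Prdm2 (ENSMUSG00000057637.6, chr4:142697294-142802898, minus strand), known as RIZ and as a tumour suppressor, had a promoter H3K27ac peak of −log10 q 50.1 in aNPC, 70.1 in eA and 24.0 in lA. They stood above 84.3%, 90.8% and 84.2% of their lists, below the ranks of Prdm9, and 7735 of 11303, 6408 of 11886 and 6755 of 10767 coding promoters had a higher one. The highest H3K27ac peak of the window lay outside of the annotated coding promoters. It lay about 50.7 kb into the gene, at an intron that borders an annotated exon. The run at its aNPC summit held 72% G and C, and whether a further start site lies there was not tested. The peak had −log10 q 225 in aNPC (chr4:142751369-142752101), 169.7 in eA (chr4:142750772-142752092) and 41.7 in lA (chr4:142751743-142752084). Of the peaks outside of promoters, 154 of 64514 in aNPC, 97 of 66983 in eA and 2479 of 78375 in lA were higher. In lA a further peak of this site was listed separately (chr4:142751260-142751638, −log10 q 16.4). Since the lists also differ in length, these ranks were not read as a change between stages. The site as a whole overlapped an H3K4me1 peak of aNPC, at the stretch acetylated in eA, and none of eA or lA. Of all distal H3K27ac sites found at all stages, 2.84% had no H3K4me1 peak in both eA and lA. The remaining 5 distal H3K27ac sites of Prdm2 were absent from aNPC, 3 in eA only, 1 in lA only and 1 in both. Those of eA only were weak, with −log10 q of 3.21 to 4.35. At a −log10 q of at least 5 the window held 2, 2 and 5 H3K27ac peaks in place of 2, 6 and 5. Where peaks within 500 bp counted as 1, it held 2, 6 and 3. The strongest of the 5 sites absent from aNPC was listed in lA only, 49.9 kb from the start (chr4:142752432-142752883, −log10 q 16.1). It lay within 500 bp of the site of all stages described above, which ended at 142752101, and the 500 bp count joined their lA peaks. H3K4me1 at Prdm2 covered 3.54%, 5.44% and 7.05% of the window by stage, with 12, 17 and 19 peaks, while the median over coding genes was 5.11%, 6.13% and 6.36%. Prdm2 lay below that median in aNPC and eA and above it in lA. The highest H3K4me1 peak of Prdm2 lay in an intron in aNPC (chr4:142749237-142749901, −log10 q 20.04) and in eA (chr4:142703137-142703875, 21.0), and at the promoter in lA (26.2).

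**Figure D2:**
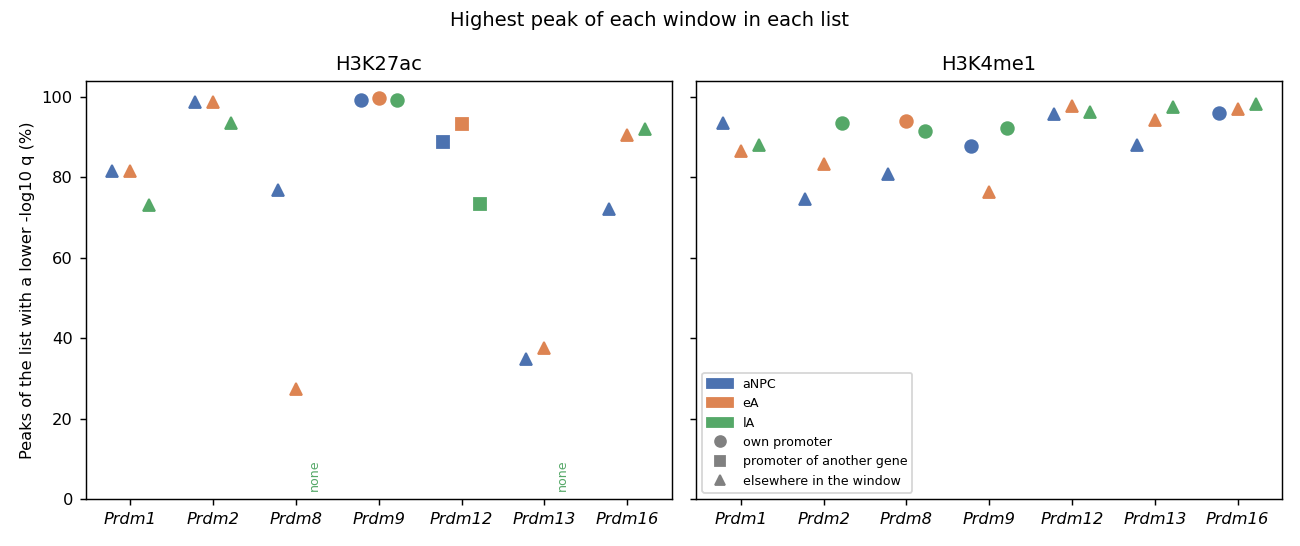
Highest peak of each member window in each list, given on the y axis as the percent of peaks of the same list with a lower −log10 q, for H3K27ac (left) and H3K4me1 (right). Circles lie at the member's own promoter, squares at that of another gene and triangles elsewhere, and "none" marks a window without a peak. The H3K27ac peak of the Prdm9 promoter stands above 99.2% of the list at the least, and the H3K27ac peak of Prdm12 is the promoter of Exosc2.

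Prdm16, known for keeping neural stem cells and for determining brown fat, had more peaks in the astrocyte lists than in the aNPC list. The gene (ENSMUSG00000039410.9, chr4:153690234-154010982, minus strand) is the longest of the members, at 321 kb. Its window held 5 H3K27ac peaks in the aNPC list, 13 in the eA list and 14 in the lA list, which covered 0.864%, 1.78% and 1.89% of it. H3K4me1 peaks numbered 28, 51 and 42 and covered 5.15%, 9.01% and 8.47%. Set beside all coding genes, Prdm16 stood above 31.0%, 38.2% and 40.4% of them by H3K27ac coverage and above 50.3%, 68.4% and 64.4% by H3K4me1 coverage. The lists themselves grow from aNPC to lA. With lists of a mark cut to equal length, Prdm16 had 5, 10 and 11 H3K27ac peaks and 28, 38 and 33 H3K4me1 peaks, lowest in aNPC for both marks. Such a cut does not equalise the unknown depth, and the cause of the difference between stages was not tested.

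The promoter of Prdm16 had an H3K27ac peak in lA only (chr4:154011013-154011358, 346 bp wide, −log10 q 8.54), above 50.9% of the list, and 9680 of 10767 coding promoters with a peak had a higher one. In eA the nearest peak (chr4:154009627-154010588, −log10 q 43.9) lay inside the gene and ended 181 bp short of the promoter, and in aNPC the nearest lay 85.7 kb away. With 1 kb on each side of the start taken as the promoter, eA had a Prdm16 peak too. H3K4me1 was already listed at this promoter in aNPC (−log10 q 42.6, above 96.0% of the list), as it was in eA (33.9) and lA (14). An H3K27ac promoter peak in lA alone with H3K4me1 at all stages was found at 0.492% of coding genes.

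Of 18 distal H3K27ac sites of Prdm16, 13 had no peak in aNPC: 6 were listed in both astrocyte stages, 4 in eA alone and 3 in lA alone. All 18 lay in introns. The highest site of eA and the highest of lA were neighbours, 37.4 and 36.2 kb into the gene. The first (chr4:153973019-153974175) had −log10 q 68.5 in eA and 34.5 in lA, above 90.5% and 90.9% of the lists. The second (chr4:153974337-153975254) had 17.1 in eA and 37.1 in lA, above 66.3% and 92.0%. Both overlapped an H3K4me1 peak of aNPC, as did the third of the high sites, the one next to the promoter described above (43.9 in eA and 13.3 in lA). The 1 site of all stages (chr4:153923239-153925102) had −log10 q 23.8, 22.9 and 14.1 and was the highest of the aNPC peaks. Among the sites of 1 stage, the highest was listed in eA at chr4:153976867-153977035 (8.25), in aNPC at chr4:153916984-153917421 (7.59) and in lA at chr4:154000209-154000588 (6.19). Many Prdm16 peaks were weak: at a −log10 q of at least 5 the counts were 4, 8 and 10, still lowest in aNPC. The highest H3K4me1 peak of Prdm16, at the promoter in aNPC, lay 136 kb into the gene in eA (chr4:153874223-153875177, −log10 q 37.3) and 234 kb into it in lA (chr4:153775513-153777647, 35.5).

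**Figure D3:**
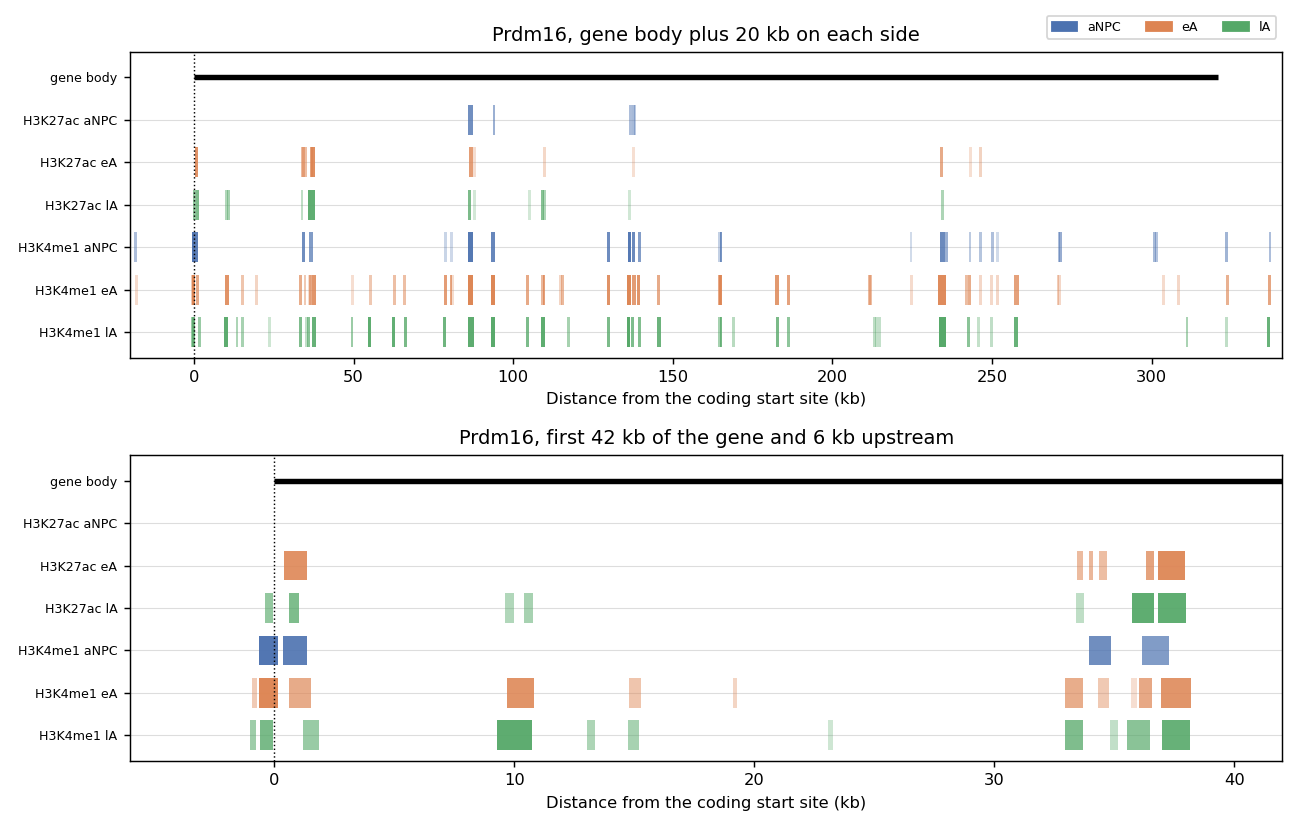
Peaks of Prdm16 by distance from its coding start in kb (x axis) and list (y axis), for the whole window (top) and the first 42 kb (bottom), with colours and shades for stage and rank within the list. H3K27ac peaks next to the start and 36.2 and 37.4 kb into the gene are present in eA and lA and not in aNPC, where H3K4me1 is present at these places.

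Prdm1, also called Blimp1, is a repressor known from plasma cells and the founding of the germ line. The gene is ENSMUSG00000038151.6 (chr10:44156983-44248307, minus strand), and its coding start lies at 44178554, since a noncoding transcript starts farther upstream, at 44248307. The H3K27ac peak at the coding promoter was 1962 bp wide in aNPC (chr10:44177503-44179464, −log10 q 40.4, above 81.2% of the list) and 1089 bp wide in eA (chr10:44177687-44178775, 14.2, above 61.5%). Of coding promoters with a peak, 8404 of 11303 in aNPC and 10739 of 11886 in eA had a higher one. In lA the nearest peak was 279 bp wide (chr10:44177667-44177945, 7.07, above 41.8%) and ended 448 bp short of the promoter. Rank within the list and width were thus both highest in aNPC and lowest in lA, where the peak lay outside of the promoter. The lists differ in length and their depth is unknown, so no change between stages was read from this. With 1 kb on each side of the start, or with the noncoding start included, lA counted as having a Prdm1 promoter peak. H3K4me1 was listed at the promoter at all stages (−log10 q 12.5, 5.75 and 12.1), and this state, with H3K27ac in aNPC and eA alone, was found at 2.52% of coding genes. The highest H3K27ac peak of the window lay just upstream of the noncoding start, about 71 kb upstream of the coding one, with −log10 q of 41.6, 37.0 and 15.6 by stage, and the highest H3K4me1 peak of Prdm1 lay there at each stage (37.4, 23.3 and 21.2). H3K27ac covered 5.19%, 2.45% and 1.98% of the Prdm1 window by stage, above 76.7%, 46.0% and 41.4% of coding genes, with 8, 6 and 7 peaks. At a −log10 q of at least 5 the Prdm1 window held 5, 4 and 5 H3K27ac peaks. Of its 10 distal H3K27ac sites, 3 were found in aNPC only, the highest at chr10:44222784-44223722 (−log10 q 7.62), and 2 in lA only, the higher at chr10:44153383-44153591 (6.47).

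Prdm8, Prdm12 and Prdm13 are known from the specification and wiring of neurons. None of them had an H3K27ac promoter peak at any stage, while 50.6%, 53.2% and 48.2% of coding genes had one in aNPC, eA and lA. Windows with at least 1 H3K27ac peak belonged to 7, 7 and 5 of the 7 members in aNPC, eA and lA, beside 74.5%, 76.1% and 75.4% of coding genes, and the 2 without in lA were Prdm8 and Prdm13. H3K27ac peaks in aNPC and eA and none in lA were found in the windows of 1.45% of coding genes. H3K4me1 peaks were listed in both windows at all stages.

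Prdm8 (ENSMUSG00000035456.5, chr5:98609888-98616467, plus strand) acts with Bhlhe22 as a repressor in developing neurons. Its H3K27ac lay over the last coding exon: a peak of 1023 bp and −log10 q 31.2 in aNPC (chr5:98614525-98615547), 362 bp and 5.68 in eA (chr5:98615183-98615544), and none in lA. These stood above 77.0% and 27.3% of the lists. The aNPC peak, and not the eA peak, also overlapped an annotated pseudogene, A730035I17Rik. The nearest H3K27ac peak to the Prdm8 promoter in lA was 148 kb away. The other 2 H3K27ac sites were listed in aNPC only, 14.9 kb and 13.8 kb upstream, with −log10 q 4.74 and 4.13. H3K4me1 lay at the promoter at all stages, with −log10 q 18.5, 31.0 and 24.0, above 71.7%, 94.1% and 91.5% of the lists. In aNPC the highest H3K4me1 peak of Prdm8 lay downstream of the gene instead (chr5:98618174-98619404, −log10 q 23.9). This state, H3K4me1 throughout without H3K27ac at the promoter, was found at 5.41% of coding genes. H3K4me1 covered 13.0%, 12.3% and 10.9% of the Prdm8 window, the highest share of any member at each stage.

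Prdm13 (ENSMUSG00000040478.8, chr4:21604627-21613110, minus strand) specifies inhibitory neurons of the dorsal spinal cord. It had 1 H3K27ac site, just under 3 kb upstream of the start. The peak there had −log10 q 6.71 in aNPC (chr4:21615936-21616335) and 7.11 in eA (chr4:21615906-21616151), above 34.7% and 37.5% of the lists, and no counterpart in lA, where the nearest peak lay 40.2 kb from the promoter. H3K4me1 at the same place was high at all stages: its −log10 q by stage was 30.0, 31.2 and 32.9, above 88.1%, 94.2% and 97.5% of the lists. These H3K4me1 peaks ended 1391, 1477 and 1413 bp short of the promoter. Prdm13 therefore fell with Prdm12 into the state without a promoter peak in any list, found at 34.1% of coding genes.

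Prdm12 (ENSMUSG00000079466.2, chr2:31495557-31511315, plus strand), needed for pain-sensing neurons, had no H3K27ac peak of its own. The single H3K27ac peak of its window was the promoter of Exosc2 at every stage, with −log10 q 69.9, 84.3 and 15.9. The highest H3K4me1 peak lay in the last part of Prdm12, with −log10 q 42.1 in aNPC (chr2:31509355-31510454), 39.7 in eA (chr2:31509297-31510456) and 29.9 in lA (chr2:31509377-31510524), above 95.8%, 97.8% and 96.2% of the lists. It overlapped no H3K27ac peak at any stage. A weaker H3K4me1 peak lay in an intron, with its summit 1175, 1328 and 1277 bp into the gene by stage (−log10 q 8.29, 5.22 and 16.0). It reached within 1 kb of the start in each list, so that Prdm12 counted as marked by H3K4me1 at all stages when 1 kb on each side of the start was used. H3K4me1 covered 9.02% (lA) to 10.9% (aNPC) of the window, above 84.3%, 74.9% and 68.1% of coding genes in aNPC, eA and lA.

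**Figure D4:**
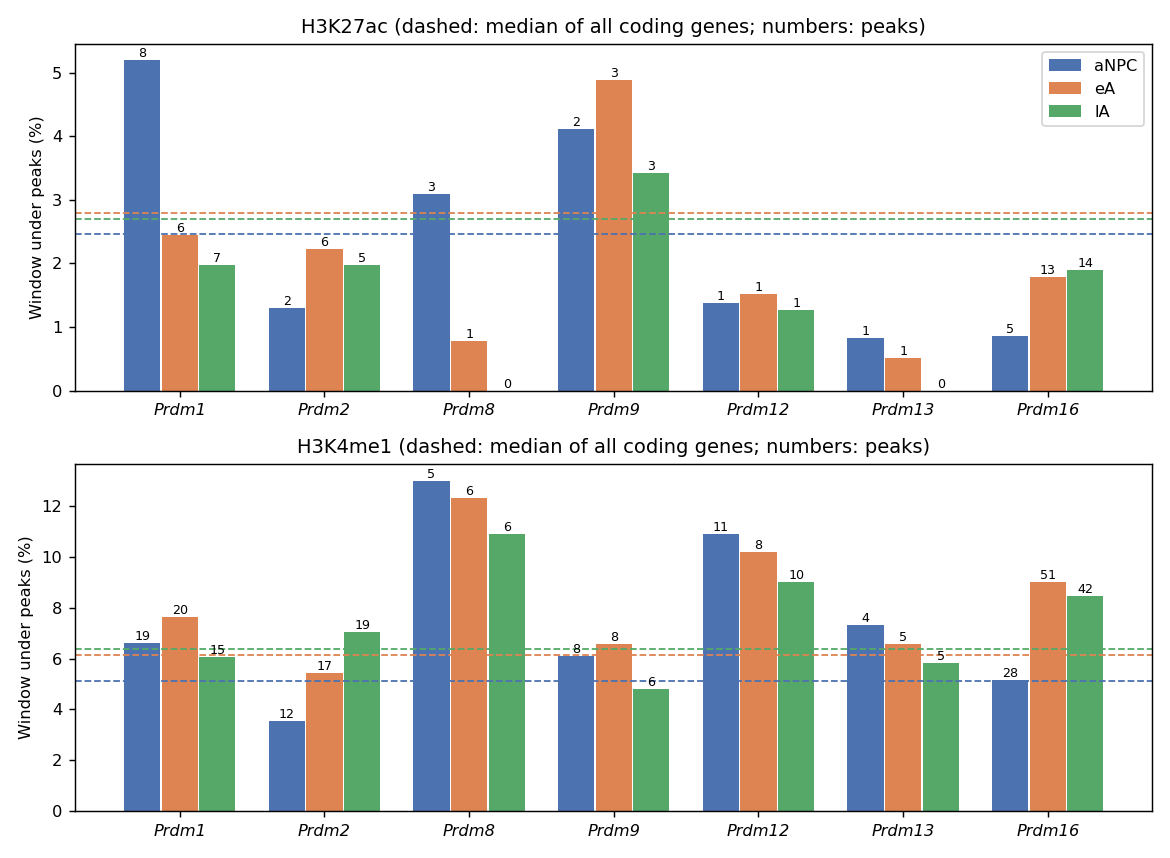
Percent of each member window (gene body plus 20 kb on each side) under H3K27ac peaks (top) and H3K4me1 peaks (bottom) at each stage, with the number of peaks above each bar and the median of all coding genes as dashed lines. H3K27ac coverage is highest in aNPC at Prdm1, Prdm8 and Prdm13 and lowest in aNPC at Prdm2 and Prdm16, and it is 0 in lA at Prdm8 and Prdm13.

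Across the members, 39 H3K27ac sites lay outside of all coding promoters. By stage, 7 belonged to aNPC alone, 8 to eA alone, 6 to lA alone, 8 to both astrocyte stages and 4 to all stages, beside 23.9%, 11.8%, 21.7%, 15.3% and 19.2% of all distal H3K27ac sites. Prdm16 supplied 18 of the 39 and 13 of the 22 without an aNPC peak, so that gene weighs most in the family totals. Of the 22 sites without H3K27ac in aNPC, 12 overlapped an H3K4me1 peak in aNPC, beside 49.2% of such sites in the genome. For Prdm16 it was 8 of 13, for Prdm2 2 of 5, for Prdm1 1 of 3 and for Prdm9 1 of 1. Of the 6 sites listed in lA only, 5 overlapped an H3K4me1 peak in eA, beside 60.2%, and the exception was the Prdm1 site at chr10:44153383-44153591. Of the 7 sites listed in aNPC only, 4 overlapped an H3K4me1 peak in lA, beside 49.3%: 2 of 2 at Prdm16, 1 of 3 at Prdm1 and 1 of 2 at Prdm8. Sites of 1 gene share a locus and are not replicates, and these counts were not tested against the background shares.

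H3K4me1 sites outside of promoters numbered 126, of which 56 belonged to Prdm16. They were listed at all stages in 47 cases, in eA and lA in 22 and in lA only in 17, beside 36.6%, 12.6% and 24.6% of all distal H3K4me1 sites. All 3 distal H3K4me1 sites of Prdm8 and all 3 of Prdm13 were found at all stages, as were 7 of 10 at Prdm12, 10 of 22 at Prdm1, 6 of 27 at Prdm2, 2 of 5 at Prdm9 and 16 of 56 at Prdm16. No H3K27ac peak of any stage overlapped 89 of the 126, beside 61.6% of all distal H3K4me1 sites. At Prdm12 this held for 9 of 10 sites, at Prdm16 for 42 of 56 and at Prdm2 for 20 of 27. It held for 2 of 3 at Prdm13, 3 of 5 at Prdm9, 12 of 22 at Prdm1 and 1 of 3 at Prdm8.

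**Figure D5:**
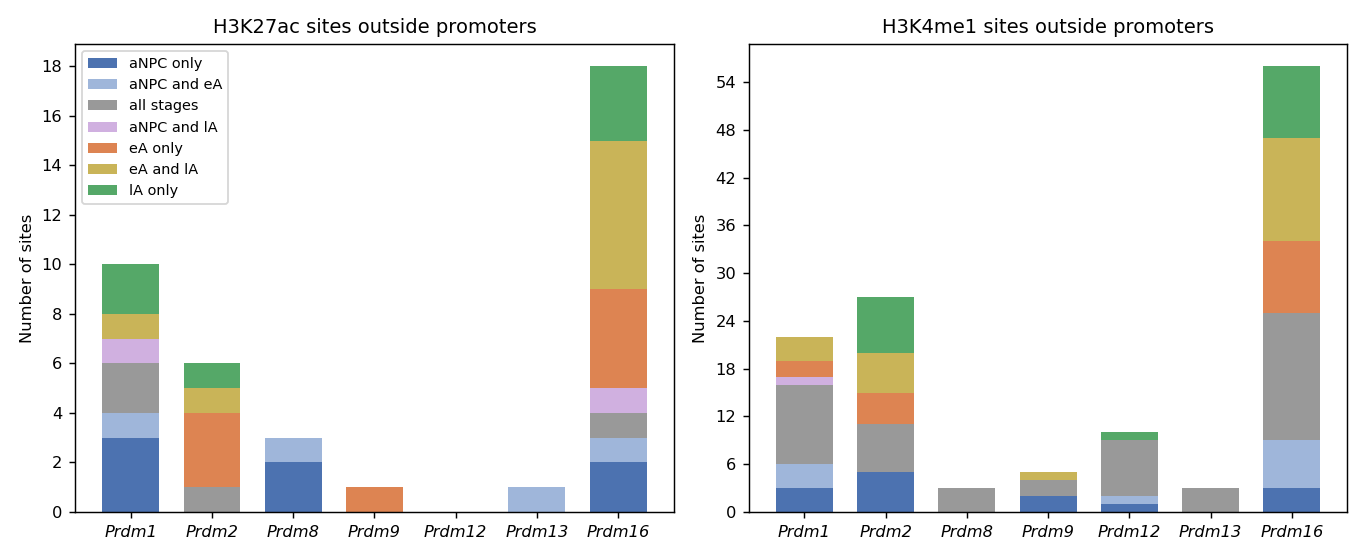
Number of H3K27ac sites (left) and H3K4me1 sites (right) outside of promoters in each member window (y axis), stacked by the stages at which the site had a peak. Prdm16 holds 18 of 39 H3K27ac and 56 of 126 H3K4me1 sites, most of its H3K27ac sites lack a peak in aNPC, and each H3K27ac site of Prdm8 and Prdm13 lacks one in lA.

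The base composition of the 7 promoters differed widely. Prdm16 was richest in G and C, with 68.0% and a ratio of observed to expected CpG of 0.905, above 98.6% and 97.6% of coding promoters. Prdm12 followed in G and C content with 62.3%, although neither mark was listed at its promoter. Its CpG ratio was 0.545. Prdm9, whose promoter peak was the highest, had 47.7% G and C, under the median of 49.3%, and a CpG ratio of 0.655 beside a median of 0.406. Prdm13 had the lowest content, 46.3% and 0.458. Prdm1, Prdm2 and Prdm8 lay between, at 51.5%, 53.4% and 52.5%, with CpG ratios of 0.645, 0.755 and 0.468.

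Motifs of factors that bear on this differentiation were searched as exact letters on both strands in the 200 bp around every member H3K27ac summit. The AP-1 motif TGANTCA was found in 1 of 22 windows in aNPC, 4 of 31 in eA and 2 of 30 in lA, beside 5.83%, 5.7% and 5.67% of all windows of the lists. The single aNPC match is the stretch in capitals in the Prdm2 intron above, and the same Prdm2 site held one in eA and lA. The other AP-1 matches lay at the Prdm1 promoter and a weak Prdm2 intron peak in eA, and at the Prdm16 site 234 kb into the gene in eA and lA. The NF1 half-site TTGGCA was found in 2, 1 and 1 windows, beside 11.1%, 11.5% and 11%. Of these, the Prdm1 promoter match stands in capitals above, as its reverse complement, and the eA and lA matches lay in weak Prdm16 peaks. The PRDM1 core ACTTTC was found in 0, 2 and 1 windows, beside 11.1%, 11.4% and 11.4%. These lay in a weak Prdm1 intron peak next to its promoter and in the Prdm16 peak 36.5 kb into the gene in eA, and in a weak Prdm2 intron peak in lA. RUNX, searched as AACCACA, had no match at any stage, beside 3.9%, 3.73% and 3.9%, nor had STAT, searched as TTCCNGGAA, beside 0.643%, 0.645% and 0.693%. In windows of 500 bp RUNX was found in 1, 1 and 1 member windows, beside 9.55%, 9.67% and 9.95% of all windows. STAT was found in 1, 0 and 2, beside 1.71%, 1.89% and 1.98%. Of RUNX and STAT, only STAT in eA was still without a match in these wider windows. The PRDM9 consensus of 15 letters from the motif table of the study had no match in a member window, and it was found in 3, 5 and 1 windows of the whole lists, or 0.00378%, 0.00599% and 0.00108%. The printed runs of Prdm8, Prdm9, Prdm13 and Prdm16 were free of all 6 motifs. A match is a run of letters and not a bound site, and its absence says nothing about the factor.

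Further PRDM genes were looked at by their promoters. Mecom, Prdm4, Prdm10, Prdm11 and Prdm15 had an H3K27ac and an H3K4me1 promoter peak at every stage. Prdm14, known from germ cells and pluripotent cells, had neither mark, and Prdm6 had H3K4me1 alone, the same promoter state as Prdm8. Of 7 genes that act in meiosis or with Prdm9 (Dmc1, Spo11, Hormad1, Sycp3, Zcwpw1, Hells and Ewsr1), 3 had an H3K27ac promoter peak at each stage, beside 50.6%, 53.2% and 48.2% of coding genes, and 3, 3 and 1 an H3K4me1 promoter peak, beside 55.4%, 53.6% and 52.7%. In lA, Hells alone had one of H3K4me1. The 3 with H3K27ac were Zcwpw1, Hells and Ewsr1, whereas Dmc1, Spo11, Hormad1 and Sycp3, which serve the recombination and pairing of chromosomes, had no promoter peak in any list. Of 4 partners of the neural members, Ebf3 had both marks at all stages, Ptf1a and Neurog2 had H3K4me1 alone at all stages, and Bhlhe22 had neither.

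The coding genes closest to each member in pattern were found among those with the same promoter state in all 6 lists, by the Euclidean distance of log2(covered percent + 1) over the 6 lists. Cebpz (0.189) and Mapk1ip1l (0.201) were closest to Prdm9 and Pde4d (0.145) and Gsk3b (0.247) to Prdm2, each among 7579 genes. Nos2 (0.516) and Aqp9 (0.75) were closest to Prdm16 among 109 genes, and Top2a (0.455) and Emp2 (0.467) to Prdm1 among 563. Spn (0.741) and Kcns2 (1) were closest to Prdm8, Lrrc55 (0.489) and Icam4 (0.67) to Prdm12, and Gm17542 (0.653) and Nr5a2 (0.657) to Prdm13.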

How the data were processed

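H3K27ac and H3K4me1 ChIP-seq of aNPC, eA and lA, 2 replicates per stage and mark, was used as the 6 lists of peaks the authors deposited. The authors aligned reads uniquely to mm9 with Bowtie, merged replicates with SAMtools (0.1.19 in the submitters' notes) and called peaks with MACS2 at default settings without input. From the deposited lists the positions, summits and −log10 q-values of the authors were taken. Depth is unknown, so no interval or floor is given and −log10 q was ranked only within a list. Merging removed the spread between replicates, and it lets 1 replicate make a peak.

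Genes and start sites came from GENCODE M1 on NCBIM37, the assembly of mm9, for chromosomes 1 to 19, X and Y. Sites were unions of peaks of 1 mark that overlap by at least 1 bp. Distal sites overlapped no coding promoter. Overlap, site and motif code was tested on simulated data with Python 3.11.15, NumPy 2.4.6 and SciPy 1.17.1, and figures were drawn with Matplotlib 3.10.9. The members were named in full, as were single peaks at a member promoter, the highest peak of a window in a list, and the highest site of 1 stage. The members and gene lists were chosen with earlier results of these data known. Alternatives changed the q threshold, list length, window, promoter, overlap and motif window. Of 51 samples, 8 RNA-seq samples with conflicting labels were left unassigned. A gene of one list is not reported here.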

Additional observations from a re-analysis of the deposited data

How the results depend on the processing

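Of 123 summary values computed under the alternatives, 110 stayed within 1.5 times the main count or, for a share, within its exact 95% binomial interval, and 13 did not. For shares the interval rests on few sites or windows of the member genes, which are not independent. It is wide, so a share that stayed within it is a weak check. At a −log10 q of at least 5, eA had 20 H3K27ac peaks in the member windows, and the distal H3K27ac sites numbered 5 in eA only, 2 in aNPC and eA, 5 in eA and lA and 0 in aNPC and lA. With 50 kb on each side, 10 sites were found in lA only and 13 in eA and lA. With an overlap of at least 50% of the shorter peak, 10 sites were found in lA only and 0 in aNPC and lA, and with lists of equal length 1 in aNPC and lA. In windows of 500 bp, the NF1 half-site was found in 19.4% of eA and 20% of lA member windows, beside 29.7% and 27.1% of all windows. The PRDM1 core was found in 22.6% of eA member windows, beside 26.2% of all windows. The longer window admits more matches by its construction. The counts of member promoters with a peak stayed within 1 of the main count under the alternatives run. The changes for Prdm1 in lA, Prdm16 in eA and Prdm12 are given beside those results. Of 455 values of single members, 381 stayed within 1.5 times and 74 did not. For these and the other values the cause was not tested. No paired analysis was possible because each list merges its replicates, and for the same reason no replicate could be left out.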
